A study of Drosophila melanogaster with 6 samples.

Results

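The genes described here are those of the deposited table that carry a serial name between CG13020 and CG13080 and lie on chromosome arm 3L, and 44 of the 17649 genes of the table met this rule. They were chosen by name and chromosome arm when the levels of both stages in the same table were already known, so every level and every difference between the stages below is a description and carries no test. CG names were given to predicted genes of Drosophila melanogaster, so that genes with close numbers are often neighbours. The study compared whole pupal eyes dissected at 40 h APF (after puparium formation) with eyes dissected at 21 h APF, all from CantonS, a wild-type strain, with 3 libraries of pooled eyes per stage and no other genotype or treatment. Expression was measured by RNA sequencing and is given as FPKM, mapped fragments per length of transcript and per depth of the library, for which the table holds the authors' pooled value for each gene and stage. There is therefore no spread between replicates beside any value, and the table gives no read counts from which a counting error could be taken. In RNA from whole eyes, fewer cells that express a gene and less RNA per cell cannot be told apart.

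The corneal lens of the fly eye is a transparent cuticle that covers each ommatidium and is secreted by the cone and pigment cells beneath it. Retinin is a protein of this lens, and its gene, retinin, lies among the CG130xx genes and gives its name to a family of small secreted insect proteins to which some of its neighbours are assigned. Protein sequences were not examined here, so the genes are called by their numbers and not by the family, and the annotation used here gives no role for the single CG genes described below.

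Of the 44 genes, 31 formed a single run of 84.2 kb, from CG13055 to CG13056 (3L, 16249560 to 16333782 of the BDGP6 assembly), in which no gap between neighbouring members was over 20 kb. The median gap between neighbours in this run was 1061 bases, 14 of the genes were on the plus strand and 17 on the minus strand, and 25 had 2 exons while 6 had a single exon. The predicted proteins had between 69 and 314 residues, with a median of 131, against 191 residues for retinin. The other 13 members were scattered on either side, between 16083993 and 16938952. Another 15 genes of the table that do not meet the rule lie within the run, among them retinin, which the table lists by that name. The authors' aligner does not split reads at introns, and the part of this in the levels of the 2-exon genes was not tested.

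Within the run, expression was concentrated at 21 h APF. The FPKM of its 31 genes summed to 269 at 40 h APF and to 8064 at 21 h APF, a 29.9-fold difference, which made up 0.0479% of the summed FPKM of all genes at 40 h and 1.45% at 21 h. At least 10 FPKM was reached by 6 of the genes at 40 h and by 11 at 21 h APF. The sum was carried by few genes, since CG13071 and CG13053 held 87.0% of it at 21 h. Without these genes the sums were 114 FPKM at 40 h, against 1047 FPKM at 21 h, a 9.22-fold difference.

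**Figure D1:**
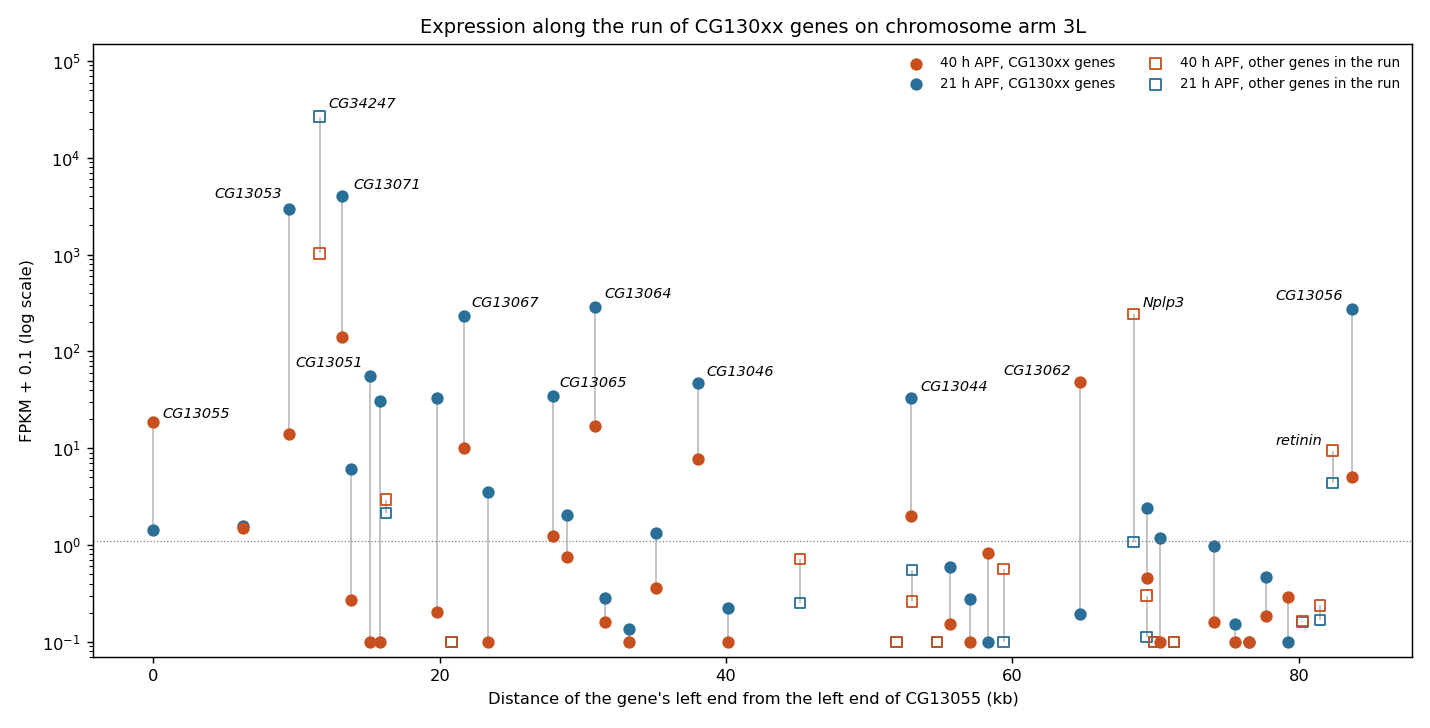
FPKM + 0.1 on a log scale at 40 h (orange) and 21 h APF (blue) for the 31 CG130xx genes of the run (filled circles) and the 15 other genes in it (open squares), by the distance of each gene's left end from the left end of CG13055 in kb. Each grey line joins the pooled values of a gene, the dotted line marks 1 FPKM, and most of the tall lines end in a blue point at the top.

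A gene was counted as higher or lower at 40 h APF when its FPKM + 0.1 at that stage, divided by its FPKM + 0.1 at 21 h, was at least 2 or at most the inverse of 2, and when it reached at least 1 FPKM at the higher stage. Of the 44 members, 27 reached that level, and 17 did not and stayed at or under 0.879 FPKM at both stages. Among the 27 genes, 19 were lower at 40 h APF, 4 were higher and 4 differed by less than 2-fold. Many of the lower genes, and CG13062 and CG13023 among the higher, reached 1 FPKM only at the stage where they were higher. Some, such as CG13060 and CG13029, were just above it, where pooled levels alone cannot tell a difference from the error of the estimate. With a minimum of 10 FPKM, 11 members were lower and 4 higher, among the latter CG13023, which was listed at 0 at 21 h. No share over all genes is given at that minimum, and the shares that follow are for 1 FPKM. Over all 9828 genes that reached 1 FPKM, 10.7% were lower and 14.8% were higher. On the log2 scale, this ratio had a median of -2.61 over the 27 members and -0.017 over all 9828 genes. With 0.1 FPKM added, 13 of the members were at least 10-fold lower at 40 h, against 1.92% of all genes. Of the 13, 4 (CG13051, CG13069, CG13066 and CG13060) were listed at 0 at 40 h, so that the size of their ratio depends on the added value. Because the members were picked with these levels known, these shares only place them within the table.

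**Figure D2:**
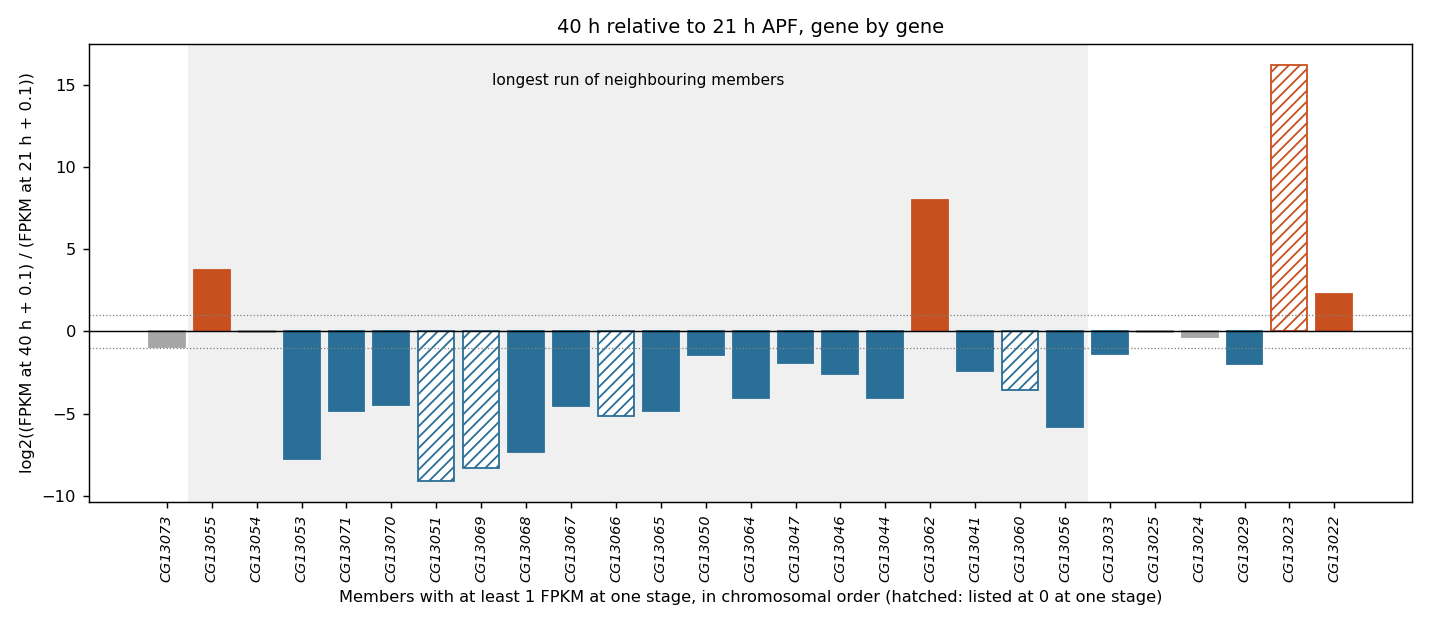
Ratio of FPKM + 0.1 at 40 h APF to that at 21 h APF, on a log2 scale, for the 27 members with at least 1 FPKM at either stage, in chromosomal order, with genes at least 2-fold higher in orange, at least 2-fold lower in blue and the rest in grey. Hatched bars mark genes listed at 0 at a stage, dotted lines mark 2-fold, and the shaded run holds 17 of the 19 bars that point down past the lower dotted line.

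The most abundant members at 21 h APF, CG13071 and CG13053, lay close together near the left end of the run. CG13071 (FBgn0036585, 16262740 to 16263247, plus strand), with a predicted protein of only 69 residues, had 142 FPKM at 40 h APF, against 4027 FPKM at 21 h APF, where it ranked number 7 among all genes of the table. CG13053 (FBgn0040801, 16259037 to 16259722, minus strand) had 13.8 FPKM at 40 h, against 2989.7 FPKM at 21 h APF, where it ranked number 11. The level at 40 h relative to 21 h was thus 28.4-fold lower for CG13071 and 217-fold lower for CG13053, which had the steeper difference of these abundant transcripts.

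The gene between them, CG34247 (FBgn0085276, 16261185 to 16261605, minus strand), falls outside the range of names but was the most abundant gene of the whole table at 21 h. Its expression was 1032 FPKM at 40 h, against 26590 FPKM at 21 h APF, a 25.8-fold difference, and it held 0.184% of the summed FPKM of all genes at 40 h and 4.77% at 21 h. It encodes a predicted protein of 83 residues and stands 1462 bases from CG13053 and 1134 bases from CG13071. Together, the 46 genes of the table that lie in the run held 0.277% of the summed FPKM at 40 h APF and 6.22% at 21 h APF. Of the 93 genes with at least 1000 FPKM at 21 h, 9 were at least 10-fold lower at 40 h, and 3 of these were CG34247, CG13071 and CG13053.

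To the right of CG13071, members with high and with low levels at 21 h lay within short distances of each other. They did not strictly alternate, since CG13051, CG13069, CG13068 and CG13067, each with at least 10 FPKM at 21 h, followed one another among the members. CG13070 (16263343 to 16264151), which begins 95 bases beyond CG13071 on the same strand, had 0.173 FPKM at 40 h, against 6.05 FPKM at 21 h APF. CG13051 and CG13069, which face away from each other across 284 bases, were both listed at 0 at 40 h APF and had 55.0 and 31.0 FPKM at 21 h, so that no fold can be given for them. They were also the only protein-coding genes of the table that were listed at 0 at 40 h with at least 10 FPKM at 21 h. In all, 24 genes of the table had such values, and the rest of them were not protein-coding. A value of exactly 0 can stand for a failed estimate, which could not be checked here. CG13069 shares its locus in the table with CG4950, with which it overlaps over 1.90% of its exon bases, and CG4950 had 2.84 FPKM at 40 h, against 2.03 FPKM at 21 h.

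CG13068 (16269392 to 16269911) had 0.105 FPKM at 40 h, against 33.2 FPKM at 21 h APF, a 317-fold difference that rests on a value near 0 at 40 h. CG13067 (16271282 to 16271918), with a predicted protein of 79 residues, had 10.04 FPKM at 40 h, against 231 FPKM at 21 h, so that it was 23.0-fold lower but still expressed at the later stage. CG13066, the next gene, was listed at 0 at 40 h and had 3.39 FPKM at 21 h. CG13065 (16277435 to 16278180) had 1.13 FPKM at 40 h, against 34.5 FPKM at 21 h, 30.4-fold lower. These 4 genes are all on the plus strand, and the level of CG13067 at 21 h was well above that of the other 3.

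CG13064 (FBgn0040796, 16280404 to 16280860) had 17.0 FPKM at 40 h, against 284 FPKM at 21 h APF, a 16.7-fold difference. Its left neighbour CG13050 had 0.657 FPKM at 40 h, against 1.92 FPKM at 21 h. On its right, 271 bases away, began a row of 5 genes on the minus strand, CG13049 to CG13045, of which only CG13046 was abundant. CG13046 (16287580 to 16288422) had 7.67 FPKM at 40 h, against 47.3 FPKM at 21 h, 6.17-fold lower. This was the smallest difference among the 11 genes of the run with at least 10 FPKM at 21 h, a set picked by its level at that stage. All 11 were lower at 40 h, against 7.5% of the 6170 genes of the table with that level at 21 h. CG13051 and CG13069, listed at 0 at 40 h, are among the 11. CG13047 had 0.257 FPKM at 40 h, against 1.23 FPKM at 21 h, and CG13049, CG13048 and CG13045 had no more than 0.183 FPKM at either stage.

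The largest gap between neighbouring members in the run, 11.5 kb, separates these genes from those around retinin. Left of it, the 18 genes from CG13055 to CG13045 had a summed level of 213 FPKM at 40 h, against 7749 FPKM at 21 h APF, and 13 of them were lower at 40 h, 1 was higher, 1 differed by less than 2-fold and 3 stayed under 1 FPKM. Right of it, the 13 genes from CG13044 to CG13056 summed to 56.4 FPKM at 40 h, against 315 FPKM at 21 h APF, and 4 were lower, 1 was higher and 8 stayed under 1 FPKM. Most of the genes that were weakly expressed at both stages were thus on the retinin side.

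On that side, expression at 21 h came mainly from the outermost genes. CG13056 (FBgn0040794, 16333313 to 16333782), the last gene of the run, had 4.94 FPKM at 40 h, against 277 FPKM at 21 h APF, and was 56.1-fold lower. CG13044 (16302490 to 16303178) had 1.89 FPKM at 40 h, against 32.8 FPKM at 21 h, 17.3-fold lower, but 91.3% of its exon bases are shared with the antisense gene CR45890, and whether reads were assigned by strand is not given in the sources used here. CR45890 was listed with 0.162 FPKM at 40 h, against 0.455 FPKM at 21 h. CG13041 had 0.352 FPKM at 40 h, against 2.32 FPKM at 21 h, with 75.8% of its exon bases shared with noncoding genes, and CG13060 was listed at 0 at 40 h and had 1.08 FPKM at 21 h.

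The gene retinin itself (FBgn0040074, 16331933 to 16332789, plus strand) differed from CG13056, which lies 523 bases from it on the same strand. Its expression was 9.37 FPKM at 40 h, against 4.26 FPKM at 21 h APF, 2.20-fold higher at the later stage. Of this pair, retinin had the higher level at 40 h and CG13056 the higher level at 21 h. Of the other 15 genes in the run, CG34247 was lower at 40 h, retinin and Nplp3 were higher, CG4950 differed by less than 2-fold, and 11 stayed under 1 FPKM, 5 of them listed at 0 at both stages.

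CG13062 and CG13055 were the members of the run that were higher at 40 h APF. CG13062 (FBgn0036603, 16314285 to 16315149, plus strand) had 48.1 FPKM at 40 h, against 0.0930 FPKM at 21 h APF, a 518-fold difference that rests on a value near 0 at 21 h. The gene that follows it on the same strand at a distance of 2.9 kb, Nplp3, which encodes a neuropeptide-like precursor, had 243 FPKM at 40 h, against 0.968 FPKM at 21 h APF. CG13055 (FBgn0036583, 16249560 to 16252355), at the left end of the run, is a single-exon gene with 2796 exon bases, the longest of the run. It had 18.6 FPKM at 40 h, against 1.33 FPKM at 21 h APF, 14.0-fold higher. Its neighbour CG13054 had 1.41 FPKM at 40 h, against 1.47 FPKM at 21 h, the closest agreement between the stages among the expressed genes of the run.

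Of the 11 members of the run that stayed under 1 FPKM, CG13039 was listed at 0 at both stages, and its exons overlap those of CG13040 over 72.2% of their length. CG13042 was highest among them at 40 h, with 0.736 FPKM, and was listed at 0 at 21 h APF. CG13059, with 0.0619 FPKM at 40 h, was highest among them at 21 h, with 0.879 FPKM. CG13043, CG13063, CG13040, CG13038 and CG13058 had no more than 0.193 FPKM at 40 h and no more than 0.487 FPKM at 21 h. At these levels the pooled values alone cannot tell a difference between the stages from the error of the estimate. The authors' own comparison was not used.

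Of the 13 members outside the run, 2 were higher at 40 h APF, 2 were lower, 3 differed by less than 2-fold and 6 stayed under 1 FPKM. They summed to 8202 FPKM at 40 h, against 143 FPKM at 21 h APF. Nearly all of the sum at 40 h came from CG13023 and CG13022. These genes lie 10.9 kb apart on the minus strand, more than 0.5 Mb to the right of the run. Most of the sum at 21 h came from CG13022, since CG13023 was listed at 0 there. CG13022 (FBgn0036679, 16938330 to 16938952), a single-exon gene for a predicted protein of 198 residues, had 605 FPKM at 40 h, against 127 FPKM at 21 h APF, 4.78-fold higher.

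CG13023 (FBgn0036677, 16923914 to 16927434) was listed at 7584 FPKM at 40 h, the number 3 level of the table, and at 0 at 21 h APF. It was the only protein-coding gene listed at 0 at 21 h with at least 100 FPKM at 40 h. Another 18 genes of the table had such values, and all of these were noncoding. In the table CG13023 shares its locus with CG13028, with which 3.66% of its exon bases overlap and which was at 0.624 FPKM at 40 h and listed at 0 at 21 h. A value of exactly 0 can stand for a failed estimate, so no fold is given, and the summed level of the 44 members, 8471 FPKM at 40 h, against 8207 FPKM at 21 h, rests on this gene at the later stage.

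The remaining members outside the run were expressed at low levels. CG13033 (16544567 to 16545628) had 0.747 FPKM at 40 h, against 2.10 FPKM at 21 h, and CG13029 had 0.282 FPKM at 40 h, against 1.38 FPKM at 21 h APF, and both counted as lower. CG13025, which RefSeq names mus302, had 7.80 FPKM at 40 h, against 7.97 FPKM at 21 h, CG13024 had 1.25 FPKM at 40 h, against 1.60 FPKM at 21 h, and CG13073 had 0.476 FPKM at 40 h, against 1.01 FPKM at 21 h. CG13075, CG13074, CG13032, CG13026, CG13031 and CG13028 stayed at or under 0.822 FPKM.

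**Figure D3:**
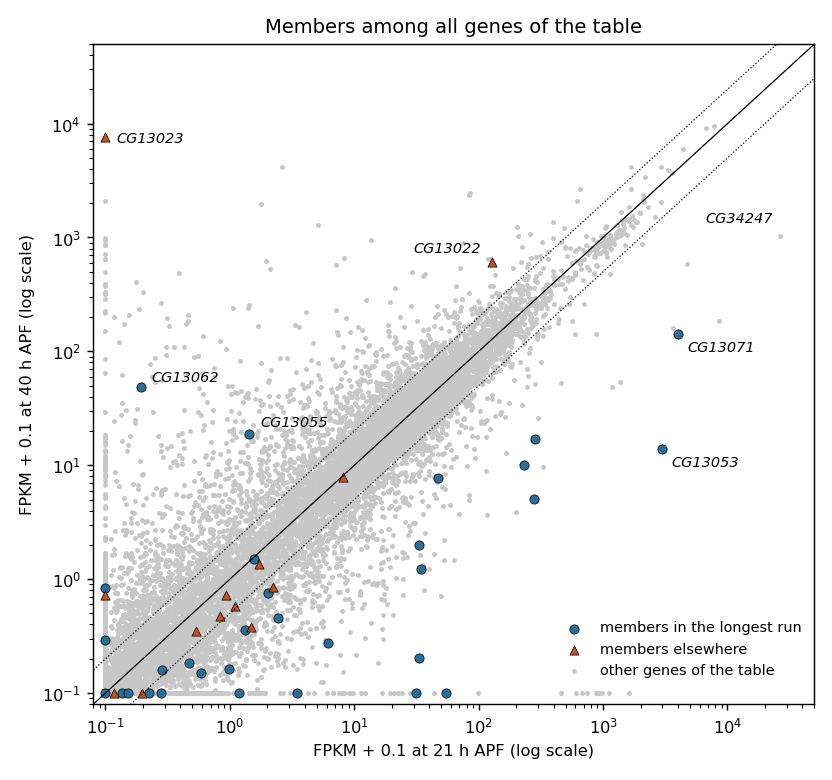
FPKM + 0.1 at 40 h (vertical) against 21 h APF (horizontal), both on log scales, for the members in the run (blue circles), the members elsewhere (orange triangles) and all other genes of the table (grey). The solid line marks equal levels and the dotted lines 2-fold, and the circles at the right lie far below the cloud, with CG13071 at 142 FPKM at 40 h, against 4027 FPKM at 21 h.

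The members that were abundant at 21 h APF were short. The 11 genes of the run with at least 10 FPKM at 21 h had between 388 and 781 exon bases, with a median of 450, and the other 20 had between 501 and 2796, with a median of 642.5. The median over all genes with at least 1 FPKM was 2028 exon bases. Among genes with under 1000 exon bases, 17.0% were lower at 40 h APF, and among the 20 members of that length with at least 1 FPKM, 18 were lower and 2 were higher. FPKM of short transcripts depends strongly on the length correction of the authors' pipeline, and its part in these levels was not tested. Of the 11 abundant genes, 7 were on the plus strand and 4 on the minus strand, against 7 and 13 for the other 20. The 11 genes were not all side by side, since 4 of the 30 pairs of neighbouring members were pairs of abundant genes, 13 were mixed and 13 held none.

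To place the run within the genome, the chromosomes X, 2, 3 and 4 were divided into 1208 bins of 100 kb that hold at least 1 gene of the table, each gene placed by the start of its locus. The bin of 3L from 16200 to 16300 kb, which holds the left part of the run, summed to 2409.5 FPKM at 40 h, against 34501 FPKM at 21 h APF, where it ranked number 1. Without CG34247 it had 7911 FPKM at 21 h and ranked number 2. Of its 26 genes with at least 1 FPKM, 14 were lower at 40 h and 3 were higher, and only a single other bin held as many lower genes. The adjoining bin, from 16300 to 16400 kb, had 913 FPKM at 40 h, against 9069 FPKM at 21 h. Of its 20 genes with at least 1 FPKM, 8 were lower and 6 were higher, and the lower ones include Cpr72Ea and Cpr72Eb, which are not in the run. A bin without any lower gene was the most frequent kind, with 605 of the 1208, but only 1152 bins held a gene that reached 1 FPKM. The counts of lower genes were not corrected for the number of genes in a bin.

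**Figure D4:**
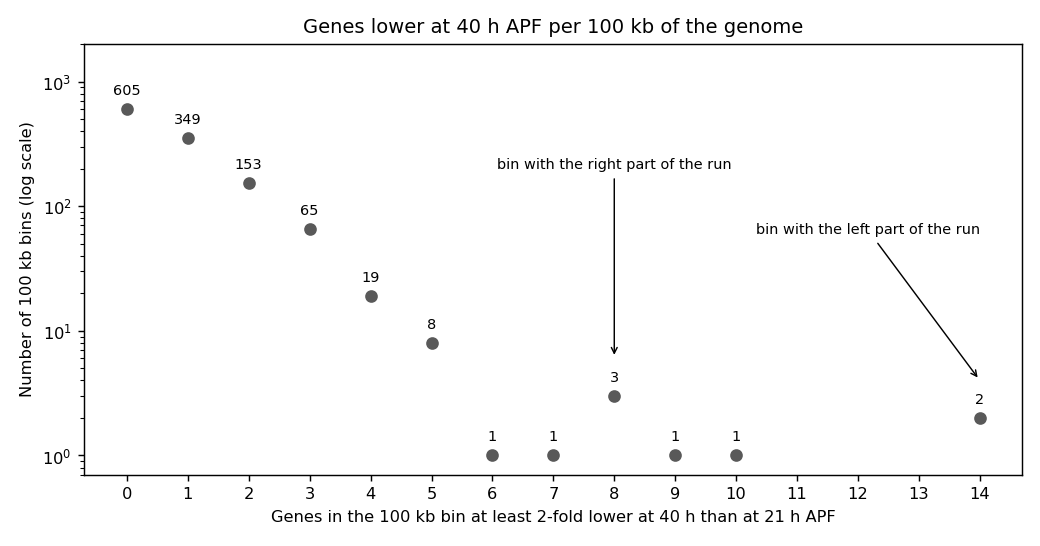
Number of 100 kb bins of the genome (log scale) by how many of their genes were at least 2-fold lower at 40 h than at 21 h APF, with each point labelled by its number of bins. The arrows mark the bins that hold the left and right parts of the run, at 14 and 8 genes, with genes outside the run counted too.

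A large part of the level in that second bin belongs to Cpr72Ea (FBgn0036617), which begins 28.8 kb to the right of CG13056 and encodes a cuticular protein of the chitin-binding CPR family. Its expression was 183 FPKM at 40 h, against 8474 FPKM at 21 h APF, where it ranked number 2 in the table after CG34247. Its neighbours Cpr72Eb and Cpr72Ec and the lens gene Crys were looked at for context, and they are not a complete list of lens genes. Cpr72Eb, the next gene to the right, had 1.46 FPKM at 40 h, against 21.4 FPKM at 21 h. Cpr72Ec, which follows it on the minus strand, had 11.5 FPKM at 40 h, against 0.614 FPKM at 21 h, and Crys, which encodes Drosocrystallin, had 15.8 FPKM at 40 h, against 33.9 FPKM at 21 h.

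The genes taken as markers of photoreceptor neurons were elav, chp and gl. Their levels were 89.6 FPKM at 40 h, against 84.9 FPKM at 21 h for elav, and 164 FPKM at 40 h, against 370 FPKM at 21 h for chp. For gl they were 132 FPKM at 40 h, against 235 FPKM at 21 h. The cone cell genes ct, sv and pros lay between 15.8 and 35.2 FPKM at 40 h and between 23.4 and 56.9 FPKM at 21 h. All of these genes were expressed at both stages, so that the tissue carried markers of the eye. The pigment and lattice cell genes differed in direction, with 325 FPKM at 40 h, against 137 FPKM at 21 h for w, 67.3 FPKM at 40 h, against 98.7 FPKM at 21 h for rst, and 17.0 FPKM at 40 h, against 10.8 FPKM at 21 h for pn. Of the genes of other tissues, the fat body genes Lsp2 and Fbp1 had the higher levels at 21 h, with 14.5 FPKM at 40 h, against 28.5 FPKM at 21 h for Lsp2 and 5.46 FPKM at 40 h, against 7.87 FPKM at 21 h for Fbp1, while Yp1 had no more than 0.155 FPKM. Of the neuronal genes, VAChT had 16.2 FPKM at 40 h, against 6.57 FPKM at 21 h. Gad1 had 1.51 FPKM at 40 h, against 1.38 FPKM at 21 h, and so differed by less than 2-fold. The glial gene repo was at 40.4 FPKM at 40 h, against 40.5 FPKM at 21 h. The muscle genes Mhc and Mlc1 summed to 2.32 FPKM at 40 h, against 0.170 FPKM at 21 h. Those of hemocytes and of trachea each came to no more than 0.691 FPKM at either stage. The part of any of these tissues in the levels of the CG130xx genes was not tested.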

How the data were processed

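Whole-eye RNA from CantonS pupae was sequenced from 3 libraries at 40 h and 3 at 21 h APF. The authors aligned paired-end reads to the BDGP6 genome with bowtie2, which makes no spliced alignments, and used gene models of Ensembl release 93. Their run of Cuffdiff gave the deposited FPKM, pooled over replicates after geometric normalization and bias correction. Versions, strandedness and read counts per gene are not given in the sources used here. The deposited table also holds a log2 fold change, a test score, p-values, q-values and a mark of significance, which are the authors' own comparison and were not used.

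The levels were compared as log2((FPKM at 40 h + 0.1)/(FPKM at 21 h + 0.1)), which understates differences of weakly expressed genes. Calls over all genes needed a 2-fold difference and a minimum of 1 FPKM where the gene was higher. Folds given for single genes or sums are ratios of FPKM without the added 0.1, and counts of genes past a fold use the ratio with it. Gene spans, strands, exons and coding lengths are from Ensembl release 115 on BDGP6, which holds 43 of the 44 members. For 99.1% of 9207 genes alone at their locus, its span equals the authors' locus, and positions are 1-based. For CG13025, which that release does not hold under its identifier, the locus of the table was used. Members with at least 10 FPKM or past 2-fold were named with their values, other members by counts and ranges, and genes within the run, Crys and the Cpr72E genes as context. The members and lists were chosen with earlier results of these data known. Python 3.11.15, numpy 2.4.6, pandas 2.3.3 and matplotlib 3.10.9 were used.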

Additional observations from a re-analysis of the deposited data

How the results depend on the processing

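The values of single replicates were not used, so no replicate could be left out and no paired analysis was possible because each stage has a single pooled value per gene. The count of 4 members higher at 40 h was 7 without a minimum level, and that of 19 members lower was 11 with a minimum of 10 FPKM. The median log2 ratio of members, -2.61, was -4.51 with a minimum of 10 FPKM, -1.36 without a minimum, -1.30 with 1 FPKM added to both stages, -4.27 without genes at shared loci and -4.05 over every gene of the run. The run of 31 genes held 18 when the largest gap was set to 10 kb. The members' summed FPKM at 40 h, 8471, was 874 without genes at shared loci, which include CG13023, and 269 without the members outside the run; these alternatives for the sum were chosen after seeing the data. Rescaling both stages to the same sum, centring on the median gene, or adding 0.01 FPKM kept each count and median within 1.5-fold. A division of the members by protein similarity to retinin was planned and not run, because no protein sequences were used here.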
